A study of Mus musculus with 45 samples.

Results

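The data described here compare how mouse embryonic fibroblasts (MEFs) with and without p53 responded to 8 h of bacterial lipopolysaccharide (LPS, 100 ng/ml), a building block of the outer layer of Gram-negative bacteria. p53 is a DNA-binding factor that stops division or starts cell death after DNA damage. The comparison rests on 6 of the 45 RNA-seq libraries of the series, chosen by their labels. These were WT, p53_KO-1 and p53_KO-2, each at LPS 0 h and at LPS 8 h. The other libraries were LPS at 0.5, 1 and 3 h, and series with the inflammatory cytokines IL-1b and TNF. All 45 entered the statistical fit. All cells were primary MEFs of strain C57BL/6 that had been starved of serum overnight. The WT cells were littermate controls and the p53-/- cells were 2 biological replicates, called the lines KO-1 and KO-2 below and p53KO together. The stated purpose of the series was to compare inducible expression between p53-deficient and WT cells, because p53-deficient cells can be kept in culture for longer. WT had 1 library per time, so a WT level or change has no error of its own, its spread was assumed to equal that of the p53KO pairs, and the genotype and the WT culture cannot be told apart. The labels do not say whether KO-1 and KO-2 came from separate embryos, so the p-values measure the spread between these samples. In bulk RNA, fewer cells of a type and less RNA per cell cannot be told apart either. No library was kept for 8 h without LPS, so a change from 0 h to 8 h covers LPS and 8 h of further culture together.

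LPS is handed by CD14 and MD-2 to the receptor TLR4, which signals through 2 adaptors. MyD88 leads to NF-kB and to the early cytokines and chemokines. TRIF leads to the factor IRF3 and to interferon beta, which acts back on the cells through its receptor and turns on antiviral, GTPase and antigen presentation genes some hours later. Many genes of this later wave carry a DNA element in their promoters, the interferon-stimulated response element (ISRE).

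Levels are in CPM (counts scaled to the library total, with TMM scaling), and the main quantity is the log2 change from 0 h to 8 h in p53KO minus the same change in WT, called the difference in change. A positive value means a larger rise or a smaller fall in p53KO. Each was tested with edgeR's quasi-likelihood test in 13851 genes, with Benjamini-Hochberg adjustment, and a call needed an adjusted p under 0.05. The 6 libraries held 8734639 to 11072939 gene counts and 16620 to 17292 genes with a count, and the scaling factors lay between 0.974 and 1.07. Trp53, the gene of p53 (ENSMUSG00000059552, mm9 chromosome 11, 69393861 to 69405375), stood at 189 CPM at 0 h and 269 at 8 h in WT, against 64.4 and 80.0 in KO-1 and 58.8 and 80.9 in KO-2. The level was lower in both lines at both times, and reads on the gene remained in both, with the deleted part not given in the labels. The fibroblast genes Col1a1, Col1a2 and Col3a1 were abundant in all 6 libraries, with Col1a1 at 8853 to 11600 CPM. Vim lay between 2479 and 4206 CPM, Thy1 between 239.1 and 524.6 and Pdgfrb between 345.8 and 438.7. Pdgfra (107.9 to 268.7), Dcn (63.2 to 193.4), Lum (22.32 to 136.8) and Fap (7.86 to 20.69) were lower. At both times both lines lay below WT for Thy1, Vim and Lum, and above it for Col1a2, Col3a1, Pdgfra and Fap. Of 20 macrophage markers all had reads, and their summed level was 650 CPM at 0 h and 677.6 at 8 h in WT, 637.9 and 695.5 in KO-1 and 567.7 and 561.8 in KO-2. Summed endothelial markers lay between 17.02 and 27.4 CPM, epithelial markers between 34.63 and 57.09, muscle markers between 16.35 and 32.4 with Myf5 and Ckm at 0 counts, neural markers between 177.4 and 293.6 with Olig2 at 0, and erythroid markers between 0 and 0.479 with 6 of 8 at 0. The filter left 19 of 20 macrophage, 6 of 9 endothelial, 8 of 9 epithelial, 3 of 9 muscle, 7 of 9 neural and 0 of 8 erythroid markers. None of those tested passed edgeR's test for the difference in change. At an unadjusted p under 0.05 there were 2 macrophage, 1 epithelial and 1 neural marker, and DESeq2 called 0. The median SE was 0.8 for endothelial and 0.898 for epithelial markers, beside 0.231 over all genes, so differences in these could be missed. Levels of some markers did differ: at 0 h 1 endothelial, 3 epithelial and 2 neural markers were higher in p53KO and 1 epithelial, 1 muscle and 2 neural markers lower. At 8 h 2 macrophage, 1 endothelial, 2 epithelial and 2 neural markers were higher and 1 macrophage, 1 epithelial, 1 muscle and 2 neural markers lower. The keratin gene Krt18, picked after its values were seen, stood at 4.99 CPM at 0 h and 5.74 at 8 h in WT, 19.2 and 19.5 in KO-1 and 19.9 and 21.4 in KO-2. The part of such cells in the results was not tested.

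LPS changed many genes in each genotype, and the size of the change differed between genotypes in few of them. In p53KO 2350 genes rose (17% of those tested) and 2382 fell (17.2%). In WT, with 1 library per time, 1076 rose (7.77%) and 858 fell (6.19%). The difference in change was higher in p53KO for 98 genes (0.708%) and lower for 31 (0.224%). Of these, 44 (0.318%) and 11 (0.0794%) differed by at least 1 on the log2 scale. The median over all genes tested was -0.00324. In every one of the 129 called genes the changes of both lines lay on the same side of the WT change. The calls were made from these same libraries and favour such genes, so this is no separate support. With the line fitted as a block, 174 and 74 genes passed. Without KO-2 at 0 h, 62 and 15 passed, and without KO-1 at 0 h, 68 and 18. Fitted on the 6 libraries alone, 40 and 4 passed, and of the genes named below whose calls no single left-out library ended, those of B2m, Ifi27, Ccl7, Klf2, Cpeb1, Phlda3, Mdm2, Hmox1, Erap1 and Herc6 were lost in that fit. With the LPS series alone the calls of Vgf, Clec12a, Arc, Cpeb1, Parvb, Srgap3, Mapk13, Il11, Zfp36, Has2, H2-T22, Erap1, Psme1, H2-T23, Tap2 and Herc6 were lost (adjusted p from 0.0525 to 0.192). DESeq2's Wald test did not call Vgf, Clec12a, Cpeb1, Spry4, Parvb, Srgap3, Kcnj15, Mapk13, Il11, Has2, H2-T23, Tap2 and Herc6 (adjusted p from 0.0626 to 0.480).

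**Figure D1:**
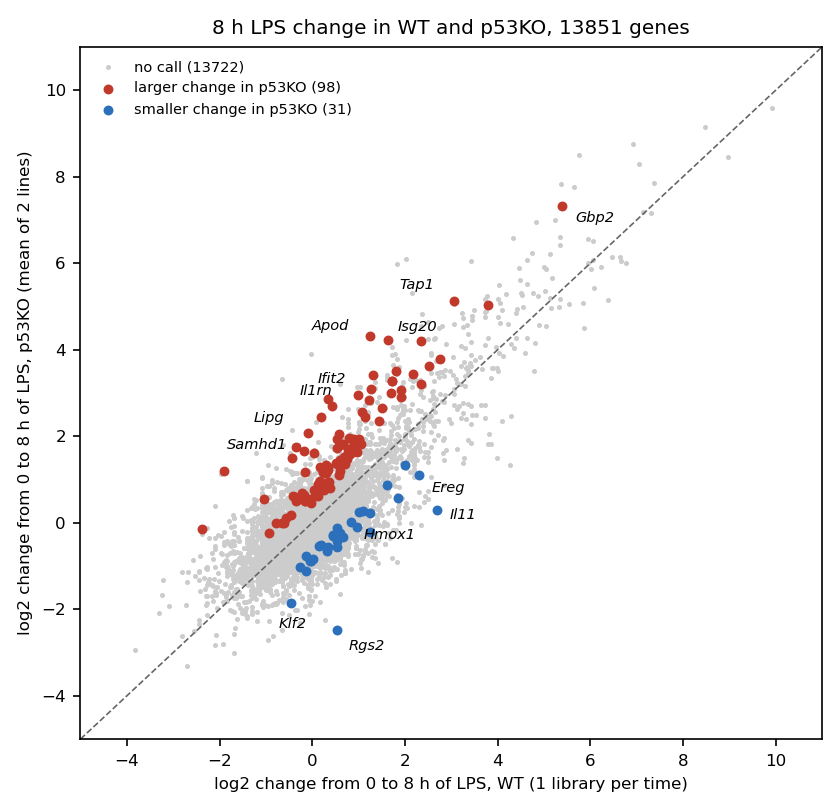
Log2 change from 0 h to 8 h of LPS in WT (horizontal axis, 1 library per time) against the mean change of the 2 p53KO lines (vertical axis), 1 point per gene tested and with the dashed line marking equal change. The 98 genes with a larger change in p53KO (red) lie above the line and the 31 with a smaller one (blue) below it, and grey points passed no test of the difference.

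A larger change could come from a higher level after LPS, a lower level before it, or both. Levels themselves differed between the genotypes in many genes: at 8 h 1352 genes were higher in p53KO (9.76%) and 1206 lower (8.71%), and at 0 h 943 were higher (6.81%) and 958 lower (6.92%). Among the 98 genes with the larger change, 57 differed in level at 8 h alone, 15 at 0 h alone, where p53KO was lower, and 16 at both times in these opposite directions. A further 6 were higher and 4 lower in p53KO at both times. LPS raised 54 of the 98 in both genotypes and 35 in p53KO with no call in WT. Of the rest, 6 fell in WT with no call in p53KO. Among the 31 genes with the smaller change, 28 were lower in p53KO at 8 h, 18 of them with no level call at 0 h. Of these 31 genes, 13 fell in p53KO with no call in WT, 9 rose in WT with no call in p53KO, 5 rose in both and 4 moved in opposite directions.

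The receptor and adaptor genes that sense LPS did not pass the edgeR test of the difference in change in any of 17 cases. At an unadjusted p under 0.05 there were 0 higher and 1 lower, and DESeq2 called 0. Their median difference in change was -0.02. In level, 1 of the 17 was higher and 5 lower in p53KO at 8 h, where 9.76% and 8.71% of all genes were, and 0 were called at 0 h. Tlr4, the receptor itself, had 17.2 CPM at 0 h and 21.9 at 8 h in WT, 10.7 and 8.19 in KO-1 and 12 and 7.98 in KO-2. Both lines lay below WT at both times, and the difference in level at 8 h was -1.44 on the log2 scale (SE 0.22, edgeR adjusted p = 2.11e-05). The difference in change of Tlr4 was -0.84 (95% interval -1.47 to -0.2, adjusted p = 0.319). Cd14, the co-receptor that hands LPS on, stood at 68.2 CPM in WT at 8 h against 95 in KO-1 and 88.8 in KO-2, from 13.6, 17.7 and 12.8 at 0 h. Its level at 8 h was higher in p53KO by 0.43 (adjusted p = 0.0257), a call lost without KO-1 at 8 h (adjusted p = 0.0989). Myd88, the adaptor of the NF-kB branch, rose in WT from 31.1 to 60.4 CPM, in KO-1 from 31.2 to 60.0 and in KO-2 from 32.4 to 65.6. Its difference in change was 0.02, with a 95% interval of -0.33 to 0.38. The intervals were -0.15 to 0.66 for Ticam1, which encodes TRIF, -0.41 to 0.45 for Irf3, and -1.14 to 0.76 for Ly96, which encodes MD-2. No level call at 0 h or 8 h was made for these 4 genes.

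Genes of NF-kB and its feedback, such as the inhibitors that end the signal, rose in both genotypes. The rise was called for 20 of 25 in p53KO and 17 in WT, where 17% and 7.77% of all genes rose. Of the 25, 1 differed in change. That gene was Zfp36, which encodes tristetraprolin, a protein that speeds the decay of cytokine mRNAs. Zfp36 stood at 42.7 CPM at 0 h and 32 at 8 h in WT, 27.8 and 37.7 in KO-1 and 24.1 and 41.8 in KO-2. The p53KO lines began below WT (-0.72 on the log2 scale, adjusted p = 0.00532) and ended above it without a call (0.31, adjusted p = 0.241), a difference in change of 1.03 (SE 0.25, adjusted p = 0.0400). The call was lost without KO-2 at 0 h (adjusted p = 0.154) and without KO-2 at 8 h (0.1247).

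Interferon signalling genes differed between the genotypes in level, while no difference in change was called. Of 21 such genes, 6 were higher in p53KO at 0 h and 9 at 8 h, where 6.81% and 9.76% of all genes were. None was lower at either time. No difference in change passed edgeR's test, with 4 higher and 1 lower at an unadjusted p under 0.05 and 0 called by DESeq2. Ifnb1, which encodes interferon beta, fell under the expression filter: it had 1 count in WT at 3 h of LPS, 7 in KO-1 and 6 in KO-2, and 0 or 1 count in every other library of the LPS series. The level of Stat2, a factor that acts with IRF9 downstream of the interferon receptor, was higher in p53KO by 0.94 on the log2 scale at 0 h and 0.97 at 8 h, and its difference in change of 0.03 had an interval of -0.55 to 0.6.

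Irf7, a factor that amplifies interferon production, reached 85.4 CPM at 8 h in WT, 227 in KO-1 and 245 in KO-2, from 2.95, 6.13 and 5.31 at 0 h. The level at 8 h was higher in p53KO by 1.47 (adjusted p = 2.66e-07). Irf1, another interferon regulatory factor, was higher at 8 h by 0.9, and Socs1, a feedback inhibitor of the receptor's kinases, by 0.92. The Socs1 call was lost without KO-1 at 8 h (adjusted p = 0.0645) and without KO-2 at 8 h (0.104). Usp18, which shuts off the interferon receptor, went from 1.48 to 113 CPM in WT, from 8.14 to 328 in KO-1 and from 5.4 to 265 in KO-2. Its excess in p53KO was 2.17 at 0 h and 1.39 at 8 h, with a difference in change of -0.78 and an interval of -2.04 to 0.48. Irf9 was higher at 0 h by 0.83 (adjusted p = 0.00240), and its level at 8 h did not pass the test (0.22). The receptor genes Ifnar1 and Ifnar2 had intervals of -0.47 to 0.15 and -0.58 to 0.11 for the difference in change.

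**Figure D2:**
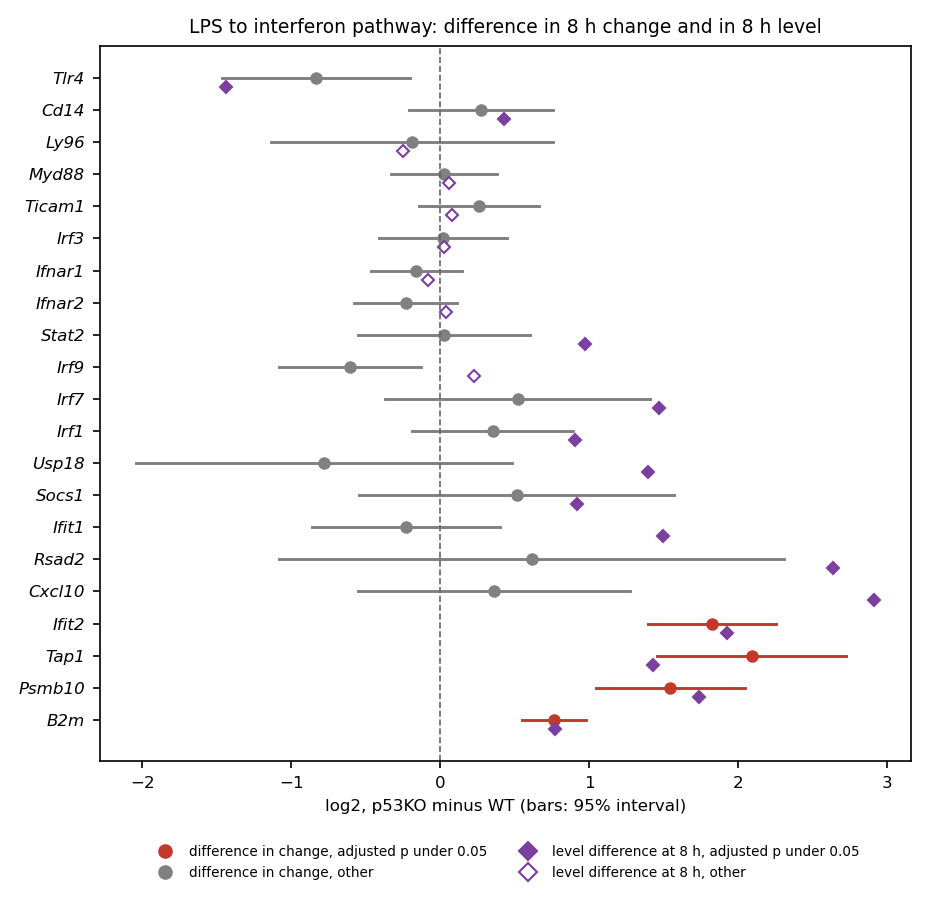
Difference in the 8 h LPS change between p53KO and WT (circles, with bars for the 95% interval, on a log2 scale) and difference in level at 8 h (diamonds) for genes along the path from LPS to interferon and its targets. Stat2, Irf7, Irf1 and Usp18 differ in level at 8 h while their difference in change passed no test, and the lowest 4 genes, Ifit2, Tap1, Psmb10 and B2m, passed both tests.

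The antiviral genes that interferon turns on rose in nearly all cases in both genotypes, and p53KO held more RNA of most of them at 8 h and of 11 at 0 h. Of 56 tested, 55 rose in p53KO and 56 in WT. At 8 h 49 were higher in p53KO and 1 was lower, where 9.76% and 8.71% of all genes were. The median level difference was 1.49 on the log2 scale beside 0.00219 over all genes. At 0 h 11 were higher and 2 lower, where 6.81% and 6.92% of all genes were, with a median of 0.63. Across the 56 genes the median level was 3.12 CPM in WT, 6.71 in KO-1 and 4.85 in KO-2 at 0 h, and 41.7, 124 and 120.4 at 8 h. The count of 11 at 0 h was 6 without KO-1 at 0 h and 17 without KO-2 at 0 h.

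The 0 h libraries of the IL-1b and TNF series, which share no library with the LPS series, gave a second measure of the level before stimulation. In them 24 of the 56 antiviral genes were higher in p53KO and 3 lower, where 14.6% and 14.1% of all genes were. All 11 antiviral genes that were higher at 0 h of LPS were among the 24. Over all genes, 859 of the 943 higher at 0 h of LPS were also higher at 0 h of IL-1b and TNF. The overlap is thus not particular to the antiviral genes. Whether these cells were separate cultures from those of the LPS series is not given in the labels.

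The difference in change passed the test for 5 antiviral genes upward and 1 downward, with a median of 0.63 over the 56. Ifit2, whose protein binds viral RNA, stood at 26.1 CPM in WT, 28.4 in KO-1 and 27.5 in KO-2 at 0 h and at 63.5, 241 and 240.3 at 8 h. The 3 cultures began close together and both p53KO lines ended above WT, a difference in change of 1.82 (SE 0.21, adjusted p = 1.64e-05). Isg20, an exonuclease that degrades RNA, went from 3.06 to 9.88 CPM in WT, from 1.44 to 30.1 in KO-1 and from 1.6 to 34.5 in KO-2. The change was larger in p53KO by 2.71 (SE 0.46, adjusted p = 0.00161). Tor3a, an interferon-induced member of the torsin ATPases, rose from 19.5 to 134 CPM in WT and to 297 and 311 in the lines, a difference of 1.01 (adjusted p = 0.00267). The other two that passed, Herc6 and Parp12, gave 1.25 and 1.1. Parp12 did not pass without KO-2 at 0 h (adjusted p = 0.0546). Ifi27, an interferon-induced protein of mitochondria and the nuclear envelope, went the other way. It rose from 28.9 to 46.2 CPM in WT and fell from 21.8 to 17.4 in KO-1 and from 22.1 to 17.3 in KO-2. Its difference in change was -1.01 (SE 0.16, adjusted p = 0.000676), and it was the 1 antiviral gene lower in p53KO at 8 h.

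Samhd1, a dNTP hydrolase that restricts viruses and is no member of that list, rose in p53KO with no call in WT. It had 131 CPM at 0 h and 134 at 8 h in WT, 116 and 348 in KO-1 and 114 and 353 in KO-2. This was a difference in change of 1.57 (SE 0.17, adjusted p = 7.60e-06). In 3 further targets the estimated level was higher in p53KO both before and after LPS. Their 0 h differences are given as estimates, without a test result. Cxcl10, an interferon-induced chemokine, stood at 1.82 CPM in WT, 11 in KO-1 and 10.4 in KO-2 at 0 h and at 336, 2718 and 2340.0 at 8 h. Its level was higher in p53KO by 2.55 at 0 h and 2.91 at 8 h, and the difference in change of 0.36 had an interval of -0.55 to 1.27. Ifit1 was higher by 1.73 at 0 h and 1.49 at 8 h, with a difference in change of -0.23 (-0.86 to 0.4), and Rsad2, which encodes viperin, by 2.03 and 2.64, with 0.61 (-1.08 to 2.31). Cxcl10, Ifit1, Rsad2, Herc6 and Parp12 were picked after their values were seen. Members of the Ifit, Oas and Gbp families share sequence, and the counts left out reads that aligned to more than 1 place, so the levels of single members are uncertain.

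**Figure D3:**
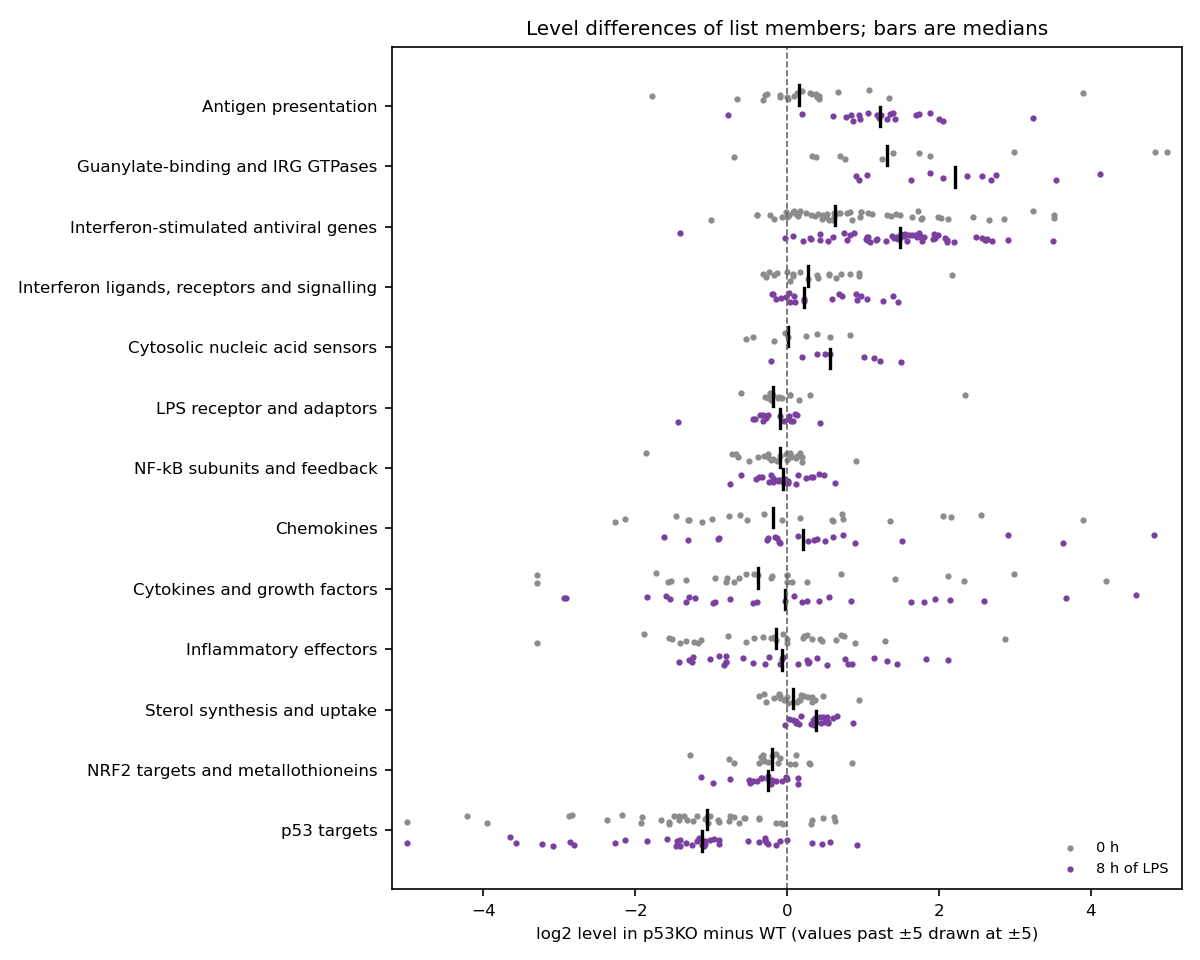
Difference in level between p53KO and WT on a log2 scale for the tested members of 13 gene lists, at 0 h (grey) and at 8 h of LPS (purple), 1 point per gene and with bars for the medians. The medians of the antiviral list are 0.63 at 0 h and 1.49 at 8 h, those of the antigen presentation list 0.16 and 1.23, and those of the p53 targets -1.06 and -1.11.

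Guanylate-binding proteins and immunity-related GTPases, which attack the compartments of intracellular pathogens, had a median level difference of 2.21 at 8 h. At 0 h it was already 1.32, at a median WT level of 1.02 CPM, and the median difference in change was 0.44. Of 12 tested, 11 were higher in p53KO at 8 h and 4 at 0 h, where 9.76% and 6.81% of all genes were. In the 0 h libraries of IL-1b and TNF 8 were higher, where 14.6% of all genes were. All 12 rose in both genotypes. Gbp2 was the 1 member that passed for the difference in change, and 2 passed with the line as a block. It went from 4.54 to 199.9 CPM in WT, from 9.58 to 1169 in KO-1 and from 5.31 to 1202 in KO-2, a difference of 1.88 (SE 0.46, adjusted p = 0.0485). That call lay close to the threshold and was lost without KO-2 at 0 h (adjusted p = 0.165), without KO-1 at 8 h (0.0615) and without KO-2 at 8 h (0.0781). Its level at 8 h was higher by 2.57 (adjusted p = 1.34e-10). Irgm1 stood at 209 CPM at 8 h in WT, 458 in KO-1 and 407 in KO-2, with a difference in change of 0.72 that did not pass (adjusted p = 0.310, and 0.00752 with the line as a block). Tgtp1 and Gbp9 had at most 3 counts in WT at 0 h, so no fold was formed. At 8 h Tgtp1 stood at 2.23 CPM in WT, 27.4 in KO-1 and 24.8 in KO-2, and Gbp9 at 7.12, 40.5 and 50.7.

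Genes of the class I antigen presentation route, which cuts proteins in the proteasome, moves the peptides into the endoplasmic reticulum and loads them on MHC molecules, together with the class II genes H2-Ab1 and Cd74 that the list also holds, showed the difference in change in 10 of 22 cases, all upward, against 0.708% of all genes. Their levels at 0 h were near those of WT, with a median difference of 0.16 and 3 of 22 higher in p53KO. At 8 h the median was 1.23 and 20 of 22 were higher. Of all genes, 6.81% were higher at 0 h and 9.76% at 8 h. LPS raised all 22 in p53KO and 18 in WT. The count of 10 was 5 with the 15 LPS libraries alone, 3 with the 6 libraries alone and 16 with the 0 h libraries of the 3 series pooled.

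Tap1 (ENSMUSG00000037321, mm9 chromosome 17, 34324498 to 34334170), a subunit of the peptide transporter, rose from 7.49 to 63.6 CPM in WT, from 5.56 to 165 in KO-1 and from 3.96 to 177 in KO-2. Both lines lay below WT before LPS, without a call (adjusted p = 0.101), and above it after. The difference in change was 2.09 (SE 0.31, adjusted p = 0.000262), or 4.26-fold. Psmb10, a catalytic subunit of the immunoproteasome, rose from 10.7 to 35.8 CPM in WT, from 11.8 to 121 in KO-1 and from 12.6 to 118 in KO-2, a difference of 1.54 (SE 0.24, adjusted p = 0.000663). B2m, the light chain shared by all class I molecules (mm9 chromosome 2, 121973422 to 121978819), began at 291 CPM in WT, 288 in KO-1 and 298 in KO-2. It ended at 606, 1020.0 and 1051, a difference of 0.76 (SE 0.1, adjusted p = 0.000103). The heavy chain gene H2-D1 went from 70.0 to 198 CPM in WT, from 57.8 to 349 in KO-1 and from 56.4 to 374 in KO-2, a difference of 1.16 (SE 0.14, adjusted p = 3.39e-05). In these 4 genes both p53KO libraries lay above WT at 8 h.

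H2-T22, a nonclassical class I gene, rose from 25.2 to 129.9 CPM in WT and from 28.1 and 25.6 to 257 and 245 in the lines, a difference of 0.86 (adjusted p = 0.0124) that did not pass without KO-2 at 0 h (adjusted p = 0.0652). The other members that passed were the second transporter subunit Tap2 (1.31), the immunoproteasome subunit Psmb8 (1.87), its activator Psme1 (0.78), the peptide-trimming enzyme Erap1 (0.84) and H2-T23 (1.16), all 5 named after their values were seen. Leaving out KO-1 at 0 h ended the calls of Tap2 (adjusted p = 0.115) and Psme1 (0.0520). Leaving out KO-2 at 0 h ended those of Psmb8 (0.0639) and H2-T23 (0.0797), and leaving out KO-2 at 8 h that of Tap2 (0.0833). H2 genes are close paralogs, so the split of reads among them is uncertain.

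**Figure D4:**
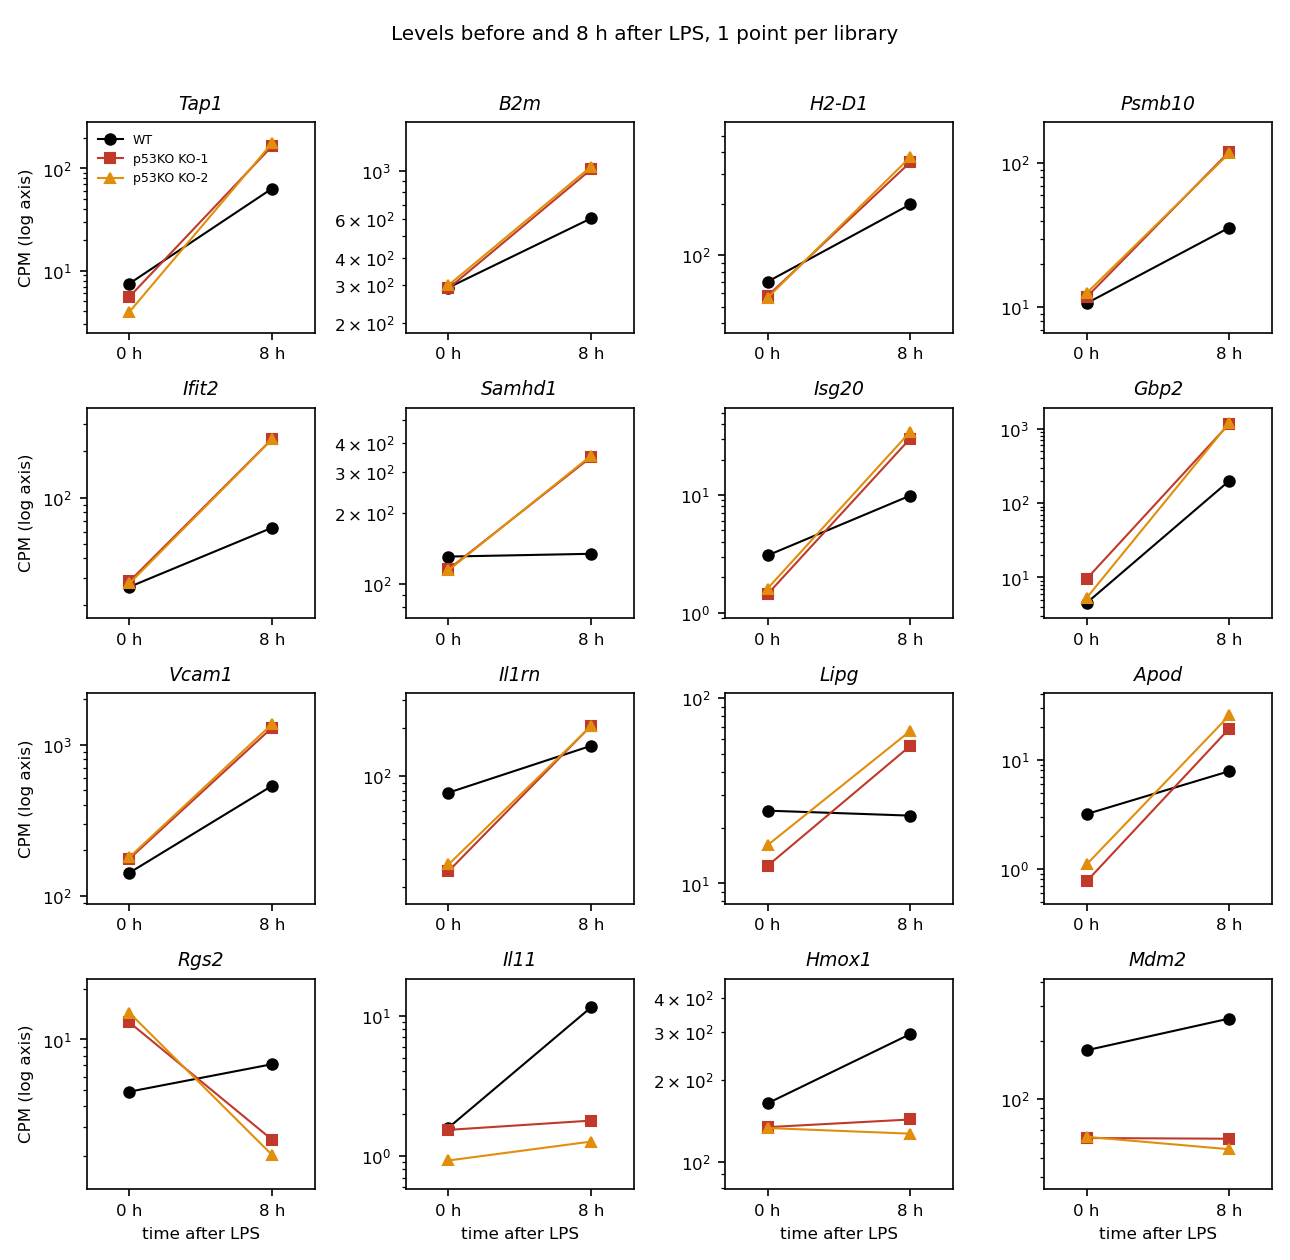
Level in CPM on log axes at 0 h and 8 h of LPS in WT (black circles), KO-1 (red squares) and KO-2 (orange triangles) for 16 genes, 1 point per library. In the top 3 rows both p53KO libraries end above WT, and in the bottom row (Rgs2, Il11, Hmox1 and Mdm2) they end below it.

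Promoters were searched for the ISRE core because many of the genes above are interferon targets. RefSeq sequences of the 250 bases before each annotated start (GRCm38.p6) were scanned on both strands for the letters GAAANNGAAA, and separately for the NF-kB site GGGANNTTCC, where N is any base. Of the 98 genes with the larger change, 73 had a promoter in the table and 11 of these (15.1%) held the ISRE core: Gfra1, Lgals9, B2m, Serpinb9, Slfn9, Tdrd7, H2-T22, H2-T23, Plod3, Parp11 and Gbp2. Among all genes tested it was in 335 of 10340 promoters (3.24%), and among all promoters of the table in 3.46%. None of the 23 promoters of genes with the smaller change held these letters. The core was in 18 of 45 promoters of the antiviral list (40%), 8 of 8 of the guanylate-binding and GTPase list and 3 of 16 of the antigen presentation list (18.8%). The NF-kB letters were in 3 of the 73 (4.11%) and in 1.43% of the genes tested. A match describes letters in the sequence and no binding was measured.

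The 5 matching promoters with the smallest p for the difference in change are printed below in the direction of the gene, with matches in capitals, to show where the letters lie. Lgals9 encodes galectin-9 and Slfn9 is a member of the interferon-induced Schlafen family, and both, like Tdrd7, Plod3, Parp11 and H2-T23, are outside the rule that named the other genes. In B2m, on chr2:122147437-122147686 of the plus strand, the ISRE core begins 139 bases before the start, and an NF-kB match begins 126 bases before it.
B2m: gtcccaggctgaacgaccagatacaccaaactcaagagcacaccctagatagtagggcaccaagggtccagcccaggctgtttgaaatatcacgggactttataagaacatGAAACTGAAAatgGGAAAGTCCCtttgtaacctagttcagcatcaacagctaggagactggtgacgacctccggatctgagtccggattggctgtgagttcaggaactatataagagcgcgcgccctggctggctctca
In Serpinb9, an inhibitor of granzyme B, on chr13:33004291-33004540 of the plus strand, the match begins 46 bases before the start and reads on the opposite strand.
Serpinb9: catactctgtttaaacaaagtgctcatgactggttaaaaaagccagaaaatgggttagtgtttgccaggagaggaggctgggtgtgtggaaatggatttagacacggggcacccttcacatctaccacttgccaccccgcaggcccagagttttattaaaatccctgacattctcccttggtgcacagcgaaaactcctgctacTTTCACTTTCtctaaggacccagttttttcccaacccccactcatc
In Slfn9, on chr11:82991831-82992080 of the minus strand, the match begins 45 bases before the start, again on the opposite strand.
Slfn9: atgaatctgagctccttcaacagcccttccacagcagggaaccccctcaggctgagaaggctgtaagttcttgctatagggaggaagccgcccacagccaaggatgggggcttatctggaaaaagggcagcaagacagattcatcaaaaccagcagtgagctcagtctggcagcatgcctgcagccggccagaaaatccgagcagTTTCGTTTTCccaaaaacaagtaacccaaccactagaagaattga
In Lgals9, on chr11:78984925-78985174 of the minus strand, it begins 55 bases before the start on the opposite strand.
Lgals9: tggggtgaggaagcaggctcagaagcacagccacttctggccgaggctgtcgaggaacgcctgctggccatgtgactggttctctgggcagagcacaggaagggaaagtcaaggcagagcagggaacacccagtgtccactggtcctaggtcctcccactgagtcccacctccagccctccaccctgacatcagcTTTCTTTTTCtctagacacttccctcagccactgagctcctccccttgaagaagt
In Gfra1, the receptor subunit for the growth factor GDNF, on chr19:58455399-58455648 of the minus strand, it begins 153 bases before the start.
Gfra1: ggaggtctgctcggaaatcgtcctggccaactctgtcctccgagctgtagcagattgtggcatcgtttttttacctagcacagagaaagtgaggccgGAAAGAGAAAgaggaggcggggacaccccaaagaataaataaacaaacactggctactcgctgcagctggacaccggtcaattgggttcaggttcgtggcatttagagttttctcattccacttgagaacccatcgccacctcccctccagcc
Levels of Serpinb9 were 14.9 CPM at 0 h and 22.2 at 8 h in WT, 27.2 and 123 in KO-1 and 28.4 and 110.3 in KO-2, so that both lines lay above WT at both times. Gfra1 stood at 33 and 29.3 CPM in WT, 18.9 and 69.1 in KO-1 and 25.9 and 70.8 in KO-2, and its lines crossed from below to above WT. The differences in change were 1.49 for Serpinb9 (adjusted p = 0.000117), 1.81 for Gfra1 (8.19e-05), 1.64 for Lgals9 (0.000103) and 1.48 for Slfn9 (0.00283).

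Cytosolic sensors of nucleic acids had 1 call among 9 genes. Mlkl, the executioner of necroptosis that this list holds with the sensors, rose from 11.1 to 37 CPM in WT, from 6.51 to 74 in KO-1 and from 8.68 to 75.3 in KO-2. The genotypes thus differed in change by 1.55 (SE 0.28, adjusted p = 0.00342). Tlr3, a receptor for double-stranded RNA, reached 21.4 CPM in WT, 64.2 in KO-1 and 56.5 in KO-2 at 8 h, with a level difference of 1.5 (adjusted p = 1.63e-05) and a difference in change of 1.25 that did not pass (adjusted p = 0.373).

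Chemokines were induced in both genotypes, 18 of 22 in p53KO and 17 in WT, where 17% and 7.77% of all genes rose. Of the 22, 1 differed in change. Ccl7, which attracts monocytes, went from 35.1 to 486 CPM in WT, from 15.1 to 611 in KO-1 and from 17.1 to 462 in KO-2. Its lines began below WT and ended on either side of it, and the difference in change of 1.26 (SE 0.22, adjusted p = 0.00246) went with a lower level at 0 h (-1.12, adjusted p = 6.00e-05). Ccl2, its neighbour in function, reached 1746 CPM in WT, 1684 in KO-1 and 1513 in KO-2, with a difference in change of 0.49 that did not pass. At 8 h 6 of the 22 chemokines were higher in p53KO and 3 lower, where 9.76% and 8.71% of all genes were, and the share that was lower lay close to that background.

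Cytokine and growth factor genes split, with 1 larger change and 2 smaller ones (3 with the line as a block). At 8 h 5 of 27 were higher and 11 lower in p53KO, where 9.76% and 8.71% of all genes were. At 0 h 0 of the 27 were higher and 6 lower, where 6.81% and 6.92% of all genes were. Il1rn (ENSMUSG00000026981, mm9 chromosome 2, 24192373 to 24207014) encodes the antagonist that blocks the interleukin-1 receptor, and it had the smallest p of all genes for the difference in change. It went from 78.1 to 154 CPM in WT, from 25 to 206 in KO-1 and from 27.6 to 205 in KO-2. Both lines lay below WT at 0 h (-1.57 on the log2 scale) and above it at 8 h (0.42), and the difference in change was 1.99 (SE 0.16, adjusted p = 3.93e-08).

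Il11, a cytokine of the IL-6 family, went from 1.59 to 11.5 CPM in WT and stood at 1.53 and 1.78 in KO-1 and 0.927 and 1.26 in KO-2. The rise was called in WT alone, and the difference in change was -2.52 (SE 0.53, adjusted p = 0.0140). It was lost without KO-1 at 0 h (adjusted p = 0.166) and without KO-2 at 8 h (0.0573). Ereg, a ligand of the EGF receptor, rose from 22.5 to 113 CPM in WT, from 6.61 to 15.8 in KO-1 and from 7 to 13.7 in KO-2, a difference of -1.21 (adjusted p = 0.0419). Its level was lower in p53KO at both times, and the call was lost without KO-1 at 0 h (0.109), KO-2 at 0 h (0.191) or KO-2 at 8 h (0.137), given as adjusted p. Lif, a cytokine of the IL-6 family, had 221 CPM at 8 h in WT, 64.5 in KO-1 and 58.3 in KO-2. The difference in level at 8 h was -1.85 (adjusted p = 2.37e-07), and its difference in change of -1.22 did not pass (adjusted p = 0.107, and 0.0104 with the line as a block).

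Inflammatory effectors, a list of adhesion molecules, proteases and enzymes, rose in 30 of 31 cases in p53KO and 26 in WT. Of all genes, 17% and 7.77% rose. The list had 1 larger and 1 smaller change, or 4 and 3 with the line as a block. Vcam1, which holds leukocytes to the cell surface, rose from 142 to 535 CPM in WT, from 176 to 1297 in KO-1 and from 180.5 to 1369 in KO-2. The difference in change was 0.99 (SE 0.13, adjusted p = 7.90e-05), and both lines lay above WT at both times. Has2, which makes hyaluronan, rose from 68.3 to 146 CPM in WT and reached 70.3 in KO-1 and 53.1 in KO-2, a difference of -0.81 (adjusted p = 0.0480). That call was lost without KO-1 at 0 h (adjusted p = 0.155), KO-2 at 0 h (0.0803) or KO-2 at 8 h (0.181).

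Several of the genes with the largest differences lay outside these lists. Apod, a lipid carrier of the lipocalin family, went from 3.18 to 7.86 CPM in WT, from 0.766 to 19.3 in KO-1 and from 1.1 to 25.5 in KO-2. Both lines began below WT and ended above it, and the difference in change was 3.25 (SE 0.54, adjusted p = 0.00149). Lipg, an endothelial-type lipase that cleaves phospholipids of lipoproteins, stood at 24.7 and 23.3 CPM in WT, 12.4 and 55.3 in KO-1 and 16.1 and 66.7 in KO-2. It crossed in the same way, by 2.18 (SE 0.23, adjusted p = 6.71e-06). Car12, a carbonic anhydrase, moved from 16.1 to 11.9 CPM in WT and from 10.4 and 8.68 to 28.2 and 26.3 in the lines, a difference of 1.95 (adjusted p = 0.000209). Ctnnd2, a catenin of cell junctions, had like levels at 0 h (9.42, 9.1 and 8.52 CPM in WT, KO-1 and KO-2) and 7.33, 33.9 and 26.5 at 8 h, a difference of 2.14 (adjusted p = 0.000103). Ms4a4d, a membrane protein of the MS4A family, behaved likewise, from 2.72 to 3.5 CPM in WT and from 2.49 and 2.44 to 18.4 and 20.1 in the lines (2.59, adjusted p = 0.00408).

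Il15ra, which presents interleukin-15, reached 14.1 CPM in WT, 18.7 in KO-1 and 23.8 in KO-2, from 5.56, 1.63 and 1.94. Its difference in change of 2.22 (adjusted p = 0.0138) was lost without KO-1 at 0 h (adjusted p = 0.0650). Arc, an immediate early gene of neurons, was the 1 named gene whose larger difference went with a called fall in WT and no call in p53KO, from 10.8 to 1.91 CPM, beside 4.02 and 3.36 in KO-1 and 4.55 and 4.48 in KO-2. The differences of Arc (2.36), the secreted neuropeptide precursor Vgf (2.49) and the inhibitory lectin receptor Clec12a (2.39) rested on levels of 0.479 to 10.8 CPM at 0 h and 8 h. The Arc and Vgf calls were lost when KO-1 at 0 h, KO-2 at 0 h or KO-2 at 8 h was left out, with adjusted p of 0.109, 0.0797 and 0.179 for Arc and 0.107, 0.0566 and 0.0781 for Vgf. The Clec12a call was lost without KO-1 at 0 h (0.148) or KO-1 at 8 h (0.0665).

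Tor1aip1, which anchors torsins at the nuclear envelope, rose from 97.8 to 198 CPM in WT, from 78.5 to 316 in KO-1 and from 83.2 to 306 in KO-2, a difference of 0.92 (SE 0.11, adjusted p = 3.39e-05). Vwa5a stood at 55 and 62 CPM in WT, 53 and 125 in KO-1 and 49.5 and 127 in KO-2, a difference of 1.12 (SE 0.15, adjusted p = 7.90e-05). Both genes were among the 10 with the smallest p, and in both the p53KO libraries lay above WT at 8 h.

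Among the genes with the smaller change, Rgs2 (mm9 chromosome 1, 145846468 to 145851291), which dampens signalling by G proteins, had the largest difference. It stood at 4.88 CPM at 0 h and 7.12 at 8 h in WT, fell from 12.7 to 2.52 in KO-1 and from 14.4 to 2.04 in KO-2. The lines began above WT and ended below it, a difference in change of -3.11 (SE 0.39, adjusted p = 6.31e-05). Pcdh7, a protocadherin, rose from 61.4 to 220.4 CPM in WT, from 85.5 to 119.6 in KO-1 and from 86.2 to 136 in KO-2, a difference of -1.27 (SE 0.18, adjusted p = 0.000133). Klf2, a transcription factor, went from 18.4 to 13.4 CPM in WT, from 12.7 to 3.15 in KO-1 and from 13.4 to 3.79 in KO-2. Its fall was called in p53KO alone, and the difference was -1.45 (SE 0.28, adjusted p = 0.00628).

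Smaller changes with levels of 2.63 to 60.4 CPM were called for the kinase Mapk13 (-1.49), the potassium channel gene Kcnj15 (-1.12), Srgap3, which inactivates Rac (-1.05), the adhesion protein gene Parvb (-1.01), the MAP kinase inhibitor Spry4 (-1.0) and Cpeb1, which regulates translation (-0.99). In all 6 both lines lay below WT at 8 h. Leaving out 1 p53KO library ended the call of Mapk13 (KO-2 at 0 h, adjusted p = 0.222, or at 8 h, 0.133), of Kcnj15 (KO-2 at 0 h, 0.0566) and of Spry4 (each of the 4 in turn, adjusted p from 0.0906 to 0.101). It also ended those of Parvb (KO-1 at 0 h, 0.150, KO-2 at 0 h, 0.0945, or KO-2 at 8 h, 0.163) and Srgap3 (KO-1 at 0 h, 0.144, KO-2 at 0 h, 0.0881, or KO-1 at 8 h, 0.169).

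Targets of p53 were lower in p53KO before and after LPS, 29 of 41 at 0 h and 30 at 8 h, where 6.92% and 8.71% of all genes were. There were 2 smaller changes and none larger, or 4 and 2 with the line as a block. Mdm2, the ubiquitin ligase that p53 induces and that degrades it, rose from 178 to 259 CPM in WT and stood at 63.4 and 62.9 in KO-1 and 64.3 and 55.6 in KO-2. Its difference in change was -0.65 (SE 0.12, adjusted p = 0.00447). Phlda3, an inhibitor of Akt, had 128 and 163 CPM in WT, 34.6 and 25 in KO-1 and 33.6 and 21.5 in KO-2, a difference of -0.9 (SE 0.16, adjusted p = 0.00338). The death receptor gene Fas is also a p53 target. It was lower in p53KO at 0 h (-1.55 on the log2 scale, adjusted p = 0.00111), and reached 32.7 CPM in WT, 27.1 in KO-1 and 27.8 in KO-2 at 8 h, with a difference in change of 1.3 that did not pass (adjusted p = 0.108, and 0.0104 with the line as a block).

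Hmox1, the haem-degrading enzyme and a target of NRF2, was the 1 of 19 NRF2 target and metallothionein genes with a call, beside 1 larger change with the line as a block. It rose from 164 to 295 CPM in WT and stood at 134 and 143 in KO-1 and 133 and 127 in KO-2, a difference of -0.83 (SE 0.16, adjusted p = 0.00564). Of 43 cell cycle genes 1 had a larger change, or 2 with the line as a block. At an unadjusted p under 0.05, 9 were higher and 0 lower, and the difference was positive in 36 of the 43, with a median of 0.24. At 8 h 7 were higher and 0 lower in p53KO, where 9.76% and 8.71% of all genes were, against 3 and 5 at 0 h. Mcm6, a subunit of the replicative helicase, had 216 and 186 CPM in WT, 193 and 343 in KO-1 and 202 and 299 in KO-2, a difference of 0.92 (SE 0.12, adjusted p = 0.000103). Immediate early genes had 1 call of 34, the Klf2 given above, with 4 higher and 5 lower at an unadjusted p under 0.05. In level, 16 of them were lower in p53KO at each of 0 h and 8 h, where 6.92% and 8.71% of all genes were. No difference in change was called by edgeR among 34 matrix, 20 contractile and 23 sterol genes, against 2, 1 and 8 at an unadjusted p under 0.05 and 0, 0 and 1 by DESeq2, in that order. With the line as a block 1 matrix gene and 1 contractile gene had a smaller change and 3 sterol genes a larger one. The sterol genes fell with LPS in both genotypes, 20 in p53KO and 19 in WT, where 17.2% and 6.19% of all genes fell. At 8 h 13 of them were higher in p53KO, with a median level difference of 0.38, against 2 at 0 h. Of all genes, 9.76% were higher at 8 h and 6.81% at 0 h, so the 0 h count lay close to that background. Sqle, which catalyses a rate-limiting step of cholesterol synthesis, fell from 248 to 124 CPM in WT, from 222 to 157 in KO-1 and from 242 to 204 in KO-2, a difference in change of 0.64 that did not pass (adjusted p = 0.0843, and 0.00767 with the line as a block).

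The LPS libraries at 3 h placed these differences in time. At 3 h 1207 genes were higher in p53KO (8.71%) and 1097 lower (7.92%), and 40 of the 98 genes with the larger 8 h change were already higher and 14 lower. Of the antiviral genes 45 of 56 were higher in p53KO at 3 h, and of the antigen presentation genes 14 of 22. Tap1 stood at 17.7 CPM in WT, 40.3 in KO-1 and 39.3 in KO-2 at 3 h. Samhd1 had 87.2, 158 and 133 CPM, and Vcam1 547, 902 and 966. In these 3 genes both lines lay above WT at 3 h. Il1rn was still lower in p53KO at 3 h, with 100.3 CPM in WT, 78.5 in KO-1 and 69.8 in KO-2.

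**Figure D5:**
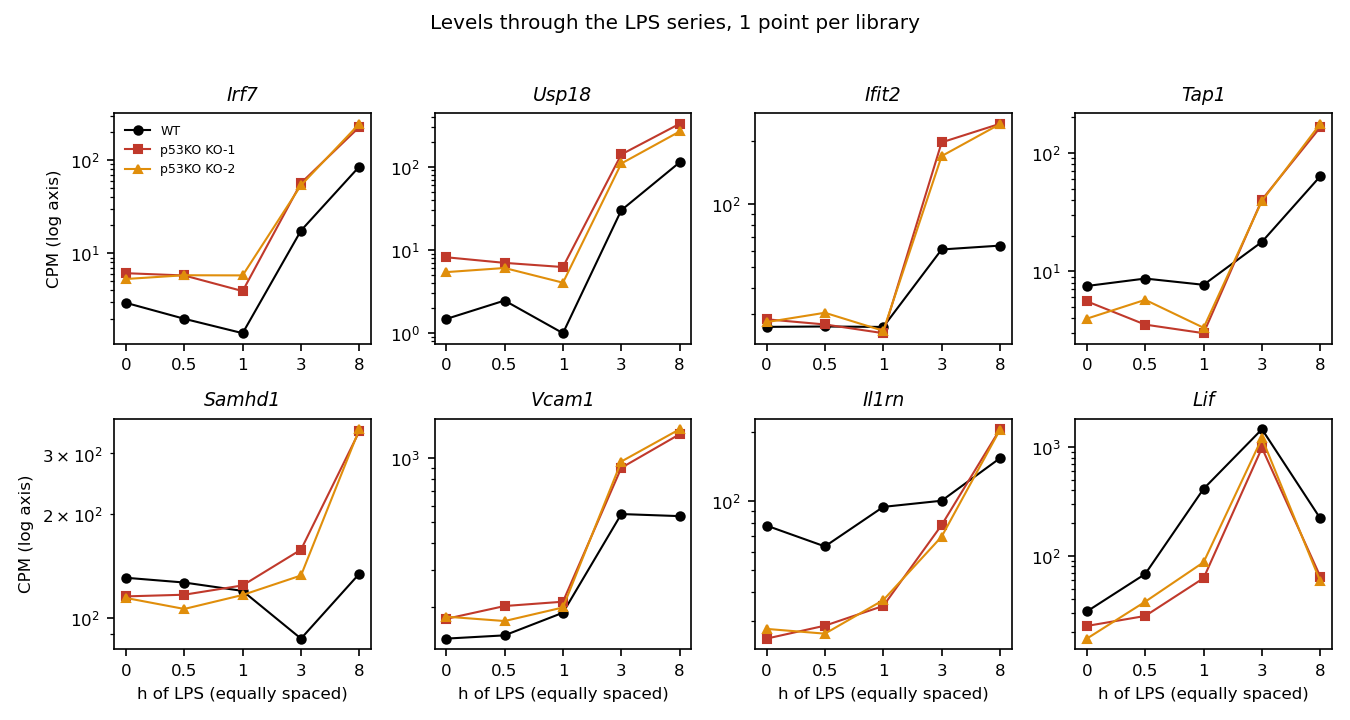
Level in CPM on log axes through the LPS series in WT, KO-1 and KO-2 for 8 genes, 1 point per library and with the times 0, 0.5, 1, 3 and 8 h drawn equally spaced. Irf7 and Usp18 lie above WT in both p53KO lines at all 5 times, Tap1 crosses WT between 1 h and 3 h, and Il1rn between 3 h and 8 h.

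The same genotype difference in 8 h change was measured for IL-1b and TNF, each with its own 0 h libraries. Both are inflammatory cytokines that activate NF-kB through their own receptors. Both were given at a lower dose by weight than the 100 ng/ml of LPS. Stimulus and dose thus differed together, and the part of the dose was not tested. The LPS value minus the mean of the cytokine values passed for 20 genes upward (0.144% of those tested) and 1 downward (0.00722%). All 20 were among the 98 genes with the larger change after LPS, and the 1 was Ifi27, among the 31. The contrast contains the LPS difference that picked the 98 and the 31, so this overlap is no separate support for them. The values after LPS, IL-1b and TNF were 1.82, 0.35 and 0.29 for Ifit2, a contrast of 1.5 (SE 0.26, adjusted p = 0.0111). They were 0.76, 0.25 and -0.1 for B2m (adjusted p = 0.0160), 1.16, 0.27 and 0.11 for H2-D1 (0.0139) and 0.86, -0.68 and -0.35 for H2-T22 (0.00592). Samhd1 gave 1.57, 0.37 and 0.45 (adjusted p = 0.0139), and Mlkl 1.55, -0.53 and -0.002 (0.0253).

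Vwa5a had the smallest p of this comparison, with 1.12 after LPS, -0.22 after IL-1b and -0.09 after TNF (contrast 1.28, SE 0.18, adjusted p = 0.00445). Serpinb9 (1.49, 0.19 and -0.66), Endod1, a nuclease-domain gene (1.21, 0.02 and -0.42), and the G protein subunit gene Gnb4 (1.41, -0.11 and 0.0033) followed, with adjusted p of 0.00454, 0.00592 and 0.00592. Il1rn gave 1.99, 0.79 and 0.81 (adjusted p = 0.00592), and Ifi27 gave -1.01, 0.17 and -0.1 (adjusted p = 0.0198). For Tap1, Psmb10, Isg20 and Gbp2 the contrast was 1.32, 0.98, 1.67 and 1.98 and did not pass, with adjusted p of 0.525, 0.622, 0.913 and 0.408. Without a filter on low counts the comparison called 51 genes in place of 21.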

How the data were processed

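Poly(A) RNA of primary MEFs was sequenced with paired ends from stranded libraries, per the labels' protocols. The deposited table holds raw counts by Ensembl gene ID, which the authors made with STAR and featureCounts on mm9, and DESeq is also listed, all per the submitters' processing notes. Versions, the annotation release and the strand setting of the counting are not given in the sources used here. Categories that name no gene held 24.65% of the counts and were left out. Gene totals of the 45 libraries ran from 5619870 to 15355994, and symbols matched 32919 of 37991 IDs through GENCODE M21.

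The 13851 genes that reached 1 CPM in 2 or more libraries were fitted with edgeR 4.0.16 (R 4.3.3), TMM scaling and the quasi-likelihood test, over all 45 libraries as 30 group means. The 15 residual degrees of freedom came from the p53KO pairs, WT had none, and the common biological coefficient of variation was 0.0679. Fitted values used a prior count of 0.125, changes per line one of 2, and intervals were 95%. Simulated data of 13505 genes for the difference in change held 100 genes changed by 1 and 100 changed by 2 on the log2 scale. Of these, 79% and 99% were called, beside 16 false calls. The false share of all calls in this single run thus lay above the 0.05 set for a call. All simulated libraries, WT included, had the spread of the p53KO pairs and no line effect, so the simulation cannot check the spread assumed for WT. The changed genes were drawn from those with a mean above 5 CPM, so genes of lower level were not covered.

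KO-1 and KO-2 carry their names through all groups and were treated as lines. Deviations of same-named libraries had correlations of -0.1686 to 0.5036 across 105 group pairs, 73 of them over 0.1 and a median of 0.1908, and one of -0.05343 between LPS 0 h and LPS 8 h. KO-1 and KO-2 differed by more than sampling noise, with chi-squared per degree of freedom at 4.261 at 0 h and 7.627 at 8 h.

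Named genes were the 12 largest and 12 smallest called differences in genes reaching 5 CPM, the 10 smallest p, the 4 smallest p of each list, the genes from LPS to interferon, and the 5 smallest p in each direction for LPS against the cytokines. Not every gene so named is described in the text. Names outside this rule are marked as such where they appear. The comparison, gene lists and names were chosen with earlier results of these data known. Alternatives were other scalings, DESeq2 1.42.0, other filters, a prior count of 2, a block for the line, fewer libraries in the fit, other 0 h libraries, each p53KO library left out and, added after the data were seen, removal of trends on length and GC content.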

Additional observations from a re-analysis of the deposited data

Results flagged for a closer look

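The change from 0 h to 8 h of LPS differed between the genotypes, by a test of the difference itself (edgeR's quasi-likelihood test, adjusted p under 0.05), in 98 genes with a larger and 31 with a smaller change in p53KO. The genotype difference after LPS differed from that after IL-1b and TNF, given at a lower dose by weight, in 20 genes upward and 1 downward. The 10 genes with the smallest p for the difference in change were Il1rn (1.99 on the log2 scale), Lipg (2.18), Samhd1 (1.57), Ifit2 (1.82), H2-D1 (1.16), Tor1aip1 (0.92), Rgs2 (-3.11), Vcam1 (0.99), Vwa5a (1.12) and Gfra1 (1.81). In all 10 the changes of both lines lay on the same side of the change in the WT culture. The same libraries picked these genes, so this is no separate support. No group held enough libraries for a check of single samples that stand apart.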

How the results depend on the processing

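The number of genes called for the difference in change varied most with the libraries in the fit. Against 129 calls (98 larger, 31 smaller), 69 (56 and 13) passed with the LPS series alone, 44 (40 and 4) with the 6 libraries alone, 396 (267 and 129) with the 0 h libraries of the 3 series pooled, 305 (209 and 96) with the 0 h libraries of IL-1b and TNF in their place, and 208 (149 and 59) without a filter on low counts. At least 1 on the log2 scale was reached by 55 (44 and 11). The replicate block for the line gave 248 (174 and 74), among them all 129, and 14 of 63 genes without a call that were followed through the alternatives gained one. Of 59 called genes followed, 13 lost the call with DESeq2, 17 with the LPS series alone and 28 with the 6 libraries alone. DESeq2's Wald test called 15 smaller changes, 1555 levels at 8 h against 2558 and 1189 at 0 h against 1901. Leaving out each p53KO library in turn gave 77 to 120 calls (62 to 93 larger, 15 to 27 smaller) and 6 to 17 antiviral genes higher at 0 h against 11. Antigen presentation genes with a larger change numbered 5 with the LPS series, 3 with the 6 libraries and 16 with pooled 0 h libraries against 10. Antiviral genes with a larger change numbered 8 without a filter, 15 with pooled and 13 with the other 0 h libraries against 5. The comparison with the cytokines called 51 genes without a filter against 21. Removal of trends on length and GC content called 51 smaller changes. No call of a gene followed reversed in direction under any of these alternatives, and the cause of these shifts was not tested. Among the scalings 69.8 to 81.8% of calls were larger changes, against 76%. WT had 1 library per time, so a deviation of the WT LPS 8 h library would enter each of these fits of the difference in change. A deviation of the WT LPS 0 h library would be diluted in the fit with pooled 0 h libraries. It would be absent from the contrast that used the 0 h libraries of IL-1b and TNF.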
